A study of Mus musculus with 12 samples.

Results

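Cells of a p53-null mouse pancreatic cancer line that had been transfected with an empty vector (fl-CCs + EV, EV hereafter) were compared with the same line without transfection (fl-CCs), across all autosomal genes. The members are the 3 arrays whose labels name the vector and the 3 arrays of the untransfected Trp53fl line, which is 6 of the 12 arrays in the series. They were read for 17404 autosomal genes out of 18193 genes named by a single symbol. The fl-CCs come from a primary tumor of a mouse in which Pdx1-Cre, active in the developing pancreas, switches on K-ras G12D. The same Cre deletes a floxed Trp53 allele, for which the mouse was heterozygous. Both groups thus carry mutant K-ras, and their labels give them as Trp53 null. EV cells grew with 0.6 mg/ml G418, the drug that selects for the vector, and so did the fl-CCs + p53 R175H cells, which carry human mutant p53. The parental fl-CCs and the mt-CCs, a different line with Trp53 R172H, grew in the same serum-containing medium without G418. Levels in the p53 R175H cells are set beside the others, and the p53 R175H and mt-CC arrays also enter the estimate of the spread. Transfection, selection, the drug in the medium and the time apart in culture therefore cannot be told apart here. The labels do not say whether the EV cells are a pool or a clone or how many passages separate them from the parental cells, and each group is 1 line. The study's methods describe the cells of each group as prepared in biological triplicate. The fit shares a single estimate of the spread over all 12 arrays. The tests therefore reflect the scatter between preparations within the 4 groups, including those not compared here, and not between lines. Trp53 was not analysed here, and no probe set for the vector or its resistance gene was used.

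The values are log2 RMA values, on which a difference of 1 is a doubling. They ran from 1.71 to 14.31, and a value under 5 was treated as near background. Pearson's r over all probe sets was 0.994 to 0.996 within the fl-CCs, 0.995 to 0.996 within EV, and 0.986 to 0.99 between the groups. Keratins of the labelled cell type were high in both groups: Krt19 and Krt8, the simple keratins of duct cells, averaged 13.66 and 13.04 in fl-CCs and 13.64 and 12.99 in EV. Of 10 epithelial markers, 2 were near background in both groups (Cldn4 and Esrp1), 2 were called lower with EV (Cldn7 and Grhl2) and 0 higher. Of 7 ductal markers, 3 were called lower (Cftr, Muc1 and Pdx1) and 2 higher (Car2, and Sox9, which was near background). Markers of cells that a culture of tumor cells could still hold were mostly near background, with 8 of 12 leukocyte, 10 of 15 fibroblast and 6 of 8 endothelial markers under 5 in all 6 arrays. The summed level of the fibroblast markers was 10.86 to 11.17 in fl-CCs and 11.58 to 11.66 in EV, where 2 of 15 were called higher, Fbln2 and Pdgfra, and the collagen gene Col1a1 averaged 5.37 and 5.78. The leukocyte sum was 8.07 to 8.17 in fl-CCs and 8.06 to 8.21 in EV. Of the leukocyte markers, 1 was called higher, Ptprc (the pan-leukocyte marker CD45), which averaged 2.48 and 3.85 and was near background in all 6 arrays, and 1 lower, Coro1a, which averaged 5.94 and 5.32. These arrays measured bulk RNA, in which fewer cells of a type and less RNA per cell cannot be told apart.

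An empty vector is the control that a transfected gene is measured against, so what differs between it and the untransfected line bears on every later comparison. A line that passes through transfection and drug selection is also regrown from the cells that survive. Pancreatic cancer cells of this kind keep an epithelial program of keratins and junctions, commonly make gastric-type mucins and trefoil factors, and secrete chemokines and acute phase proteins, many of which are targets of NFκB. Genes for mitosis are expressed in a wave late in the cell cycle, and their promoters commonly hold CCAAT boxes and the cell cycle genes homology region, whose core is TTTGAA.

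The promoters of 3 mitotic genes and 3 chemokine genes are shown because most measured members of both groups were called lower with EV. They are RefSeq sequences of build GRCm38.p6, 250 bases before to 50 after the start of each gene, read 5′ to 3′ in the direction of the gene: Plk1 at chr7:122159185-122159484 on the plus strand, Ttk at chr9:83834439-83834738 on the plus strand and Cdc20 at chr4:118437294-118437593 on the minus strand. Capitals mark TTTGAA and CCAAT on either strand.
Plk1: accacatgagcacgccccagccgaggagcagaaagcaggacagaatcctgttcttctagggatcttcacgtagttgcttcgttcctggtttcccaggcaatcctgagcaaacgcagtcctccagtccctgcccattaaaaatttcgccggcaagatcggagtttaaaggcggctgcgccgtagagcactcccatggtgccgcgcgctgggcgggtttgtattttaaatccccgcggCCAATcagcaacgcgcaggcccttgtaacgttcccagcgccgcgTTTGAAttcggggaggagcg
Ttk: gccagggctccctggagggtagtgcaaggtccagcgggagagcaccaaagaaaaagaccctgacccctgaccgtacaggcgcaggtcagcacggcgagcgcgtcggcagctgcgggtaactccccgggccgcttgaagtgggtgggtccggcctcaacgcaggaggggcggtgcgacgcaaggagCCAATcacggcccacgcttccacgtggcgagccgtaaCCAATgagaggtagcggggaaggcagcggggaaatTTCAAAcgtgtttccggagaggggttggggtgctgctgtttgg
Cdc20: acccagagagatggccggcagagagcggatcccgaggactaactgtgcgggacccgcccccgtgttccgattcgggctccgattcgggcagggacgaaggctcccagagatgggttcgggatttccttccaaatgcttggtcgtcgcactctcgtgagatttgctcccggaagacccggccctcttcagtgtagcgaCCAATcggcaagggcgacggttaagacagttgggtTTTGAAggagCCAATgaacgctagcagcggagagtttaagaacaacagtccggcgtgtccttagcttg
Among 25 promoters of 23 mitosis genes, 20 held TTTGAA (80.0%) and 21 held CCAAT (84.0%). Over all 32851 promoters in the RefSeq table the shares were 17.9% and 37.4%. Promoters of the DNA replication list held TTTGAA in 2 of 25 (8.0%) and CCAAT in 16 of 25 (64%). A match of letters is a description and not a site shown to be bound.

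The promoters of Cxcl1 at chr5:90890995-90891294 on the plus strand, Cxcl2 at chr5:90903649-90903948 on the plus strand and Cxcl3 at chr5:90785851-90786150 on the plus strand each held GGAATTTCC, a form of the κB element, in capitals below.
Cxcl1: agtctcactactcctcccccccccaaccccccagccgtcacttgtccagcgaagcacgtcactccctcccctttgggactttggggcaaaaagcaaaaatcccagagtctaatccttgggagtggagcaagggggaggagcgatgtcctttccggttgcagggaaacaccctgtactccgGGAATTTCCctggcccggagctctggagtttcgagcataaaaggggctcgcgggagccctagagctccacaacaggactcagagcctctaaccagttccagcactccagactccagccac
Cxcl2: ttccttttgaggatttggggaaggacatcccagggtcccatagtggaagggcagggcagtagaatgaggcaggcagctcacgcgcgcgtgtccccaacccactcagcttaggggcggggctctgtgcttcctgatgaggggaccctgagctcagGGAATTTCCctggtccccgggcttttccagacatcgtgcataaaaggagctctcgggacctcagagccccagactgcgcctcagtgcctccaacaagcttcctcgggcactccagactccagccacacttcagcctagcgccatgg
Cxcl3: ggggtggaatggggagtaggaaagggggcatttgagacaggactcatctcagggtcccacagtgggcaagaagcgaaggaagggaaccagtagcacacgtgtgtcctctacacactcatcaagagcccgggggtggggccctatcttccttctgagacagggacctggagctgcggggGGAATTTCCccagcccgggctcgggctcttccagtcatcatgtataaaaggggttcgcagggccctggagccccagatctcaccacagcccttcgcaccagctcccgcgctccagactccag
The match began 70 bases before the start in Cxcl1, 96 in Cxcl2 and 72 in Cxcl3. GGAATTTCC, searched on both strands, was in 0.317% of all promoters and in 3 of the 5 neutrophil chemokine promoters in the table.

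The empty vector cells differed from the parental line at 3438 autosomal genes. A gene was called where limma gave an adjusted p (Benjamini-Hochberg, over all probe sets) no greater than 0.05. On that basis 1838 genes were higher (10.6% of 17404) and 1600 were lower (9.19%), each gene read by the probe set with its smallest adjusted p. With the probe set of highest mean for each gene, 1389 were higher (7.98%) and 1263 lower (7.26%). Over the 33588 probe sets of these genes, 2567 were higher (7.64%) and 2157 lower (6.42%). Most of the differences were modest, with a median size of 0.58 among the called genes, but 342 genes rose and 302 fell by at least 1. The groups did not overlap at 3431 of the 3438 called genes. With so few arrays a group, a call nearly always comes with such separation, so the count adds no support to the calls. The plot of level against difference shows the falls reaching further than the rises.

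**Figure D1:**
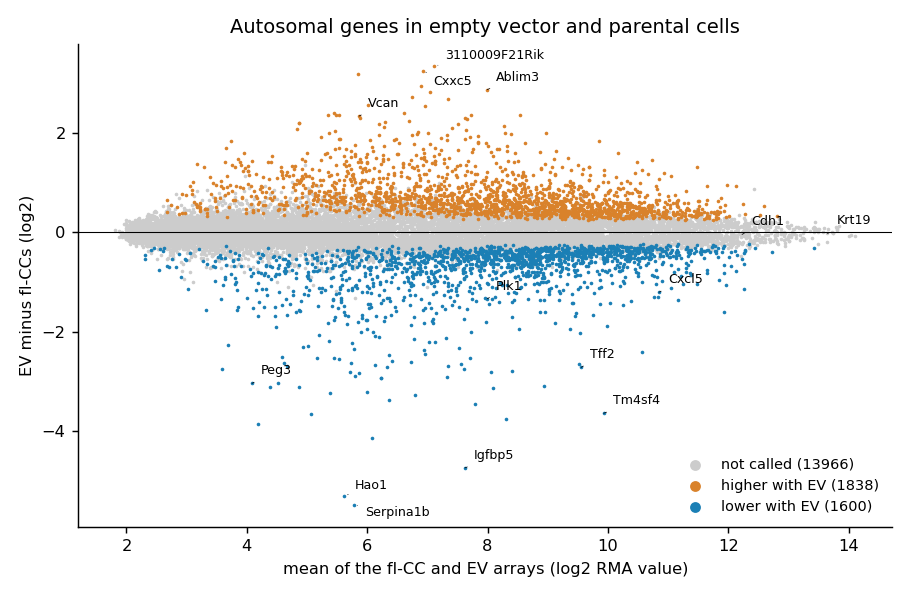
Each point is an autosomal gene, with the mean of the 6 arrays in log2 RMA values across and the difference of EV minus fl-CCs in log2 upward. The 1838 genes called higher are orange, the 1600 called lower are blue and the rest grey. The largest falls, Serpina1b and Hao1, pass -5, the largest rise, 3110009F21Rik, reaches 3.34, and the epithelial genes Cdh1 and Krt19 lie on the zero line.

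The genes that fell most included several that dropped to background. Hao1, a liver-type peroxisomal glycolate oxidase, was at 7.98, 8.40 and 8.43 in fl-CCs and at 2.97, 2.91 and 3.03 in EV (measured difference -5.30 ± 0.13 SE, limma adjusted p = 1.95e-09). As every EV array was near background, the fall is given as at least 3.27, and the p53 R175H arrays averaged 7.75. Serpina1b, an alpha-1 antitrypsin gene of a family of near-identical copies whose probes cannot be told apart with certainty, was at 8.36, 8.68 and 8.53 against 3.12, 2.72 and 3.3, a fall of at least 3.52. Both probe sets of Serpina1b fell, and the p53 R175H cells were at 8.42. The largest falls were picked among genes whose 2 groups do not overlap. At both genes the other transfected cells stood near the parental level.

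Igfbp5, a secreted binding protein for insulin-like growth factors, was at 9.78, 10.11 and 10.10 in fl-CCs and at 5.66, 5.19 and 4.92 in EV (-4.74 ± 0.26, adjusted p = 6.55e-07). Tm4sf4, a tetraspanin-like protein of liver and pancreas, was at 11.58, 11.88 and 11.79 against 7.87, 7.83 and 8.64. Bcas1, first described as amplified in breast cancer, was at 10.32, 10.17 and 10.07 against 6.23, 6.93 and 6.16. These genes stayed above or close to 5 with EV, so their differences were measured on both sides. Ambp, the precursor of the plasma protein alpha-1-microglobulin, fell by 3.46 and the complement protease gene C1s1 by at least 3.04. Slc43a3, a purine nucleobase transporter, fell by at least 3.16 and Ranbp3l by at least 1.89. Tox3, an HMG-box protein, was at 6.35, 6.06 and 5.91 in fl-CCs and at 2.17, 2.38 and 2.21 in EV, a fall of at least 1.11. Tox3 was also near background in the p53 R175H cells, at 2.33, where the other 9 genes averaged 5.90 or more. The p53 R175H means of Tm4sf4 (12.76), Ambp (10.87) and C1s1 (9.73) were above those of the parental cells.

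Rises reached 3.34. The largest was that of 3110009F21Rik, an unnamed cDNA gene, at 6.33, 4.93 and 5.06 in fl-CCs and 8.78, 8.99 and 8.59 in EV (3.34 ± 0.29, adjusted p = 1.81e-05). Cxxc5, a CXXC zinc finger protein that restrains Wnt signaling, was at 5.04, 5.35 and 5.52 against 8.40, 8.66 and 8.57, and both of its probe sets rose. Ablim3, an actin-binding LIM protein, was at 6.33, 6.59 and 6.76 against 9.42, 9.48 and 9.39. The largest rises were also picked among genes whose groups do not overlap, so the separation at these 3 genes follows from that choice. Nptx1, a secreted pentraxin, was near background in fl-CCs and averaged 7.44 with EV, a rise of at least 2.44. Egr3, an early growth response factor, averaged 4.74 and 7.29, a rise of at least 2.29. The organic anion transporter family gene Slco5a1 (2.94), the ubiquitin ligase gene Rnf182 (2.82), the kinase anchoring protein gene Akap5 (2.72), the secreted neuron-derived factor gene Ndnf (2.69) and Lgr6 (2.53), a receptor for R-spondins, completed the 10. The p53 R175H cells were near the parental level at Nptx1 (4.53), Slco5a1 (5.54) and Rnf182 (5.36). They were also nearer to the parental than to the EV mean at Cxxc5 (6.16), Ablim3 (7.34), Ndnf (5.47) and Egr3 (5.86). At 3110009F21Rik (7.97), Akap5 (7.38) and Lgr6 (7.39) they were nearer to EV.

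**Figure D2:**
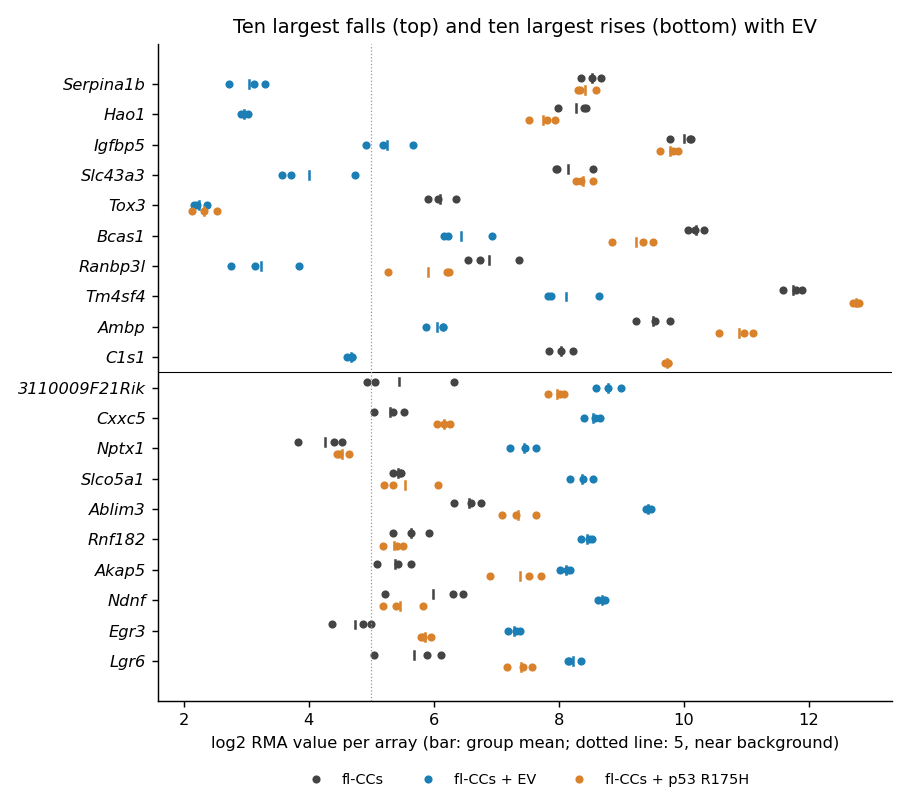
Log2 RMA values of each array (points) and group means (bars) for the 10 largest falls, above the line, and the 10 largest rises, below it, in fl-CCs, EV and p53 R175H cells. The dotted line at 5 marks values taken as near background. The genes were picked among those whose EV and fl-CC arrays do not overlap, so these points are separate in every row by choice. The p53 R175H points lie near the parental ones at Serpina1b and Igfbp5 but near EV at Tox3.

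Genes that were well measured in one group and near background in the other went both ways. Among the autosomal genes, 32 averaged at least 6 in fl-CCs and were under 5 in every EV array, and 17 showed the opposite. The first set held Dmbt1, a mucin-like scavenger protein of epithelial surfaces (7.38, 7.83 and 7.87 against 4.50, 4.85 and 4.92), and Shisa6 (7.51, 7.56 and 7.74 against 4.50, 4.45 and 4.22). It also held Lcp1, an actin-bundling protein typical of leukocytes (6.14, 6.01 and 5.95 against 3.24, 3.10 and 2.70). The second held Csgalnact1, an enzyme that starts chondroitin sulfate chains (4.74, 4.64 and 4.82 against 6.94, 7.09 and 7.03), and Sema3a, a secreted guidance protein (4.48, 4.38 and 4.20 against 6.56, 7.18 and 6.40). Of the 32 genes, 23 averaged at least 6 in the p53 R175H cells and 3 were under 5 in all of their arrays. Of the 17, 4 averaged at least 6 there and 4 were under 5 in all arrays. Dmbt1, Shisa6, Lcp1, Csgalnact1 and Sema3a were picked after their values were seen.

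Genes of cell division were lower with EV. All 29 measured genes of the mitosis and G2/M list were called lower, with a median difference of -0.86, where 9.19% of all autosomal genes were called lower and their median was -0.01. The fall was largest for Plk1, the polo-like kinase that drives entry into mitosis, at 8.98, 8.67 and 8.34 in fl-CCs and 7.23, 7.63 and 7.12 in EV (-1.34 ± 0.19, adjusted p = 0.00084). Ccna2, cyclin A2, was at 11.87, 11.19 and 11.20 against 10.25, 10.26 and 9.88, and the spindle checkpoint kinase gene Ttk at 9.77, 8.77 and 8.73 against 8.02, 7.84 and 7.73. Cdc20, whose promoter is shown above, fell by 0.88 and the proliferation marker Mki67 by 0.81. The smallest fall in the list was that of Cenpf, a kinetochore protein, by 0.50. At all 29 genes the EV arrays were below every fl-CC array. The groups did not overlap at 3431 of all 3438 called autosomal genes, so this separation adds no support beyond the calls.

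The replication and S phase list moved the same way at fewer genes, with 14 of 28 lower, 0 higher and a median of -0.52. Mcm10, a DNA replication factor, was at 9.23, 8.32 and 8.32 in fl-CCs and 7.42, 7.52 and 6.95 in EV (-1.33 ± 0.24, adjusted p = 0.00393). The DNA polymerase subunit gene Pole fell by 1.25 and Gins1 by 0.96. With only the 6 arrays in the fit 7 of 28 were called lower, and without EV replicate 1 the count was 9. The ribonucleotide reductase subunit Rrm2 was not called (-0.23, adjusted p = 0.674), and its values were 10.61, 9.35 and 9.33 against 9.67, 9.47 and 9.47. Among 14 regulators of G1, 4 were lower (28.6%) and 2 higher (14.3%, near the 10.6% of all genes). Cdkn2c, an inhibitor of cyclin D kinases, fell by 0.67, and cyclin D1 (Ccnd1) rose by 0.32.

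One parental array carried part of these differences. Replicate 1 of the fl-CCs was the highest of the 3 parental arrays at 29 of 29 mitosis genes and at 28 of 28 replication genes, against 37.0% of all autosomal genes. The median level of the mitosis list was 10.05, 9.5 and 9.45 in the fl-CC arrays, 9.06, 8.81 and 8.81 in the EV arrays, and 9.07, 9.18 and 9.22 in the p53 R175H arrays. The replication medians were 10.51, 9.52 and 9.63 in fl-CCs, 9.25, 9.30 and 9.43 in EV, and 9.31, 9.43 and 9.39 in p53 R175H cells. Without that array, the mitosis median was -0.67 and 26 of 29 genes were called lower. All 29 still had every EV array below both remaining fl-CC arrays, as did 4571 of all 17404 autosomal genes. The replication median was then -0.34, with 11 of 28 lower. The same array was the lowest of the 3 at 80.0% of the autophagy list, 75.8% of the glycolysis and hypoxia list and 72.4% of the TGF-beta and lysosome lists, against 37.8% of all genes. What set that array apart was not tested, and growth rate was not measured.

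**Figure D3:**
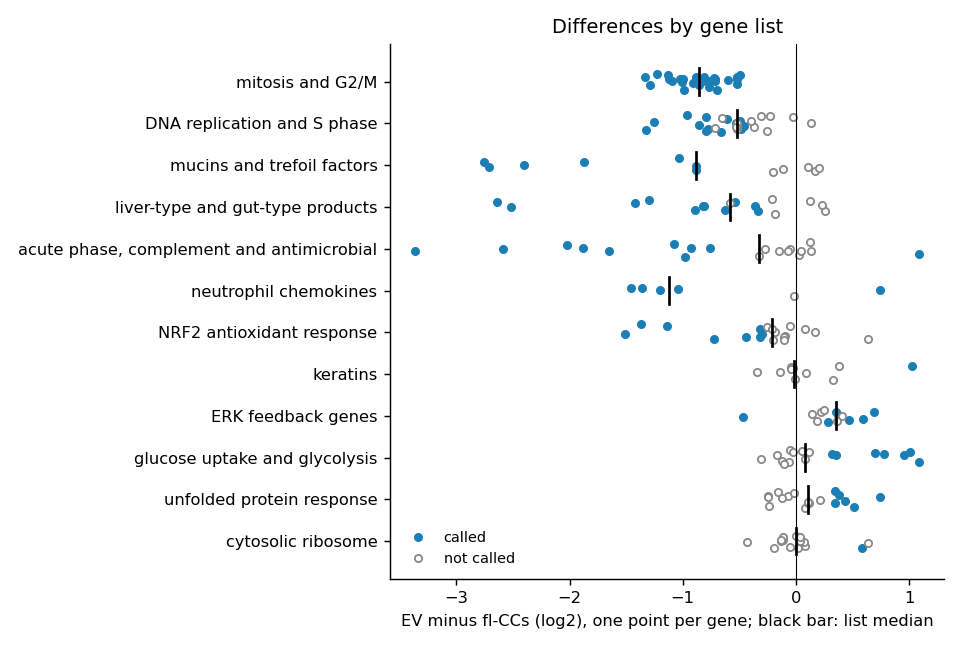
Differences of EV minus fl-CCs in log2 for the measured members of 12 gene lists, a point per gene, blue where called by limma and open where not, with the list median as a bar. All 29 mitosis points lie below 0, the acute phase points reach down to -3.36, and the keratin and cytosolic ribosome medians lie close to 0.

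Products of a gastric and liver-type secretory program were lower with EV. Of 12 mucin, trefoil and gastrokine genes, 7 were lower (58.3%, against 9.19% of all genes) and 0 higher (median -0.88). Trefoil factors are small secreted peptides that protect mucosal surfaces. Tff1 was at 11.85, 11.74 and 11.74 in fl-CCs and 9.38, 9.35 and 9.40 in EV (-2.40 ± 0.12, adjusted p = 3.45e-07). Tff2 was at 10.80, 11.04 and 10.89 against 8.20, 8.19 and 8.20, and Tff3 at 9.01, 9.06 and 8.88 against 6.52, 6.18 and 5.98. The spread within each group was far smaller than these gaps. The gel-forming gastric mucin gene Muc5ac fell by 1.87 and the transmembrane mucin gene Muc1 by 0.88, while Muc4, Muc13 and Muc20 were near background in both groups. All 3 trefoil genes lie on chromosome 17, and the p53 R175H means were 9.80 for Tff1, 8.31 for Tff2 and 7.5 for Tff3.

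Among liver-type and gut-type products, 11 of 17 were lower (64.7%) and 0 higher (median -0.58), or 1 higher by the probe set of highest mean. Afp, alpha-fetoprotein, was at 9.09, 8.96 and 8.60 in fl-CCs and 6.05, 6.55 and 6.12 in EV (-2.64 ± 0.16, adjusted p = 1.17e-06). Fabp1, the fatty acid binding protein of liver, fell to background (at least 1.71), and the apolipoprotein gene Apoa1 was at 10.23, 10.04 and 10.13 against 8.73, 8.73 and 8.67. Transthyretin (Ttr) fell by 1.30, and Apob, apolipoprotein B, fell by 0.82. Of the 20 transcription factors of pancreas and gut in the list, 5 rose (25.0%) and 4 fell (20%). Hnf4a, a master regulator of liver and gut genes, was at 12.36, 12.27 and 12.31 against 11.97, 12 and 11.82 (-0.38 ± 0.08, adjusted p = 0.0112), and Gata4 fell by 0.85. Foxa1, a pioneer factor of endoderm, rose by 0.85. Over these products and factors together 5 of 37 were higher, and 3 were without fl-CC replicate 1, EV replicate 2 or EV replicate 3. Afp and Fabp1 averaged 10.08 and 7.04 in the p53 R175H cells.

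Acute phase, complement and antimicrobial genes were lower at 9 of 19 (47.4%, against 9.19% of all genes) and higher at 1 (median -0.33). Besides C1s1, Lcn2, the iron-scavenging lipocalin 2, was at 6.93, 8.15 and 8 in fl-CCs and 4.75, 5.32 and 5.25 in EV (-2.59 ± 0.28, adjusted p = 8.97e-05). Complement factor B (Cfb) was at 10.47, 10.54 and 10.63 against 8.52, 8.45 and 8.63, and the lipopolysaccharide-binding protein gene Lbp at 10.48, 11.15 and 11.16 against 9.06, 9.03 and 9.06. None of these groups overlapped, as was so at nearly all called genes. C1ra, whose protease acts together with that of C1s1, fell by 1.65. Wfdc2 rose by 1.09, but with only the 6 arrays in the fit 0 genes of the list were called higher (limma). In the p53 R175H cells the means were 10.21 for Lcn2, 11.25 for Cfb and 11.47 for Lbp, so the parental level lay between those of the transfected lines at these genes.

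Of 6 chemokines that draw neutrophils, 4 fell (66.7%, against 9.19% of all genes) and 1 rose (16.7%, against 10.6%), with a median of -1.12. Cxcl1 was at 9.72, 9.98 and 9.82 in fl-CCs and 8.71, 8.75 and 8.92 in EV (-1.04 ± 0.10, adjusted p = 3.32e-05), and all 3 of its probe sets fell. Cxcl5 was at 11.45, 11.48 and 11.43 against 10.24, 10.31 and 10.20, Cxcl2 at 6.89, 7.70 and 7.26 against 5.50, 6.24 and 6.02, and Cxcl3 at 7.16, 7.74 and 7.41 against 5.82, 5.87 and 6.24. All 6 genes lie on chromosome 5. Cxcl15 rose by 0.74, from 5.52 to 6.26, but was called neither without fl-CC replicate 1 nor by its probe set of highest mean, and Ppbp was not called. Among 17 monocyte and lymphocyte chemokines, 3 fell (17.6%) and 1 rose (5.88%). Ccl2 fell from a mean of 6.12 to 4.99, Cxcl10 fell by 1.12 and Ccl20 fell by 0.75, while Ccl9 rose by 1.11. Of 20 interleukins and colony-stimulating factors 1 fell and 1 rose (5.0% each), both under the shares of all genes. Csf1 fell by 0.64, and Il1rn, the secreted antagonist of interleukin 1, was at 7.67, 7.68 and 7.62 against 9.22, 9.33 and 9.22.

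In the NFκB pathway list 6 of 37 genes were lower and 1 higher (median -0.16), where 9.19% and 10.6% of all genes were called. The count of 6 became 3 with only the 6 arrays in the fit, with the replicate number as a block or without EV replicate 1, and 2 without EV replicate 2 or fl-CC replicate 2. None of the 4 measured subunits was called. Among inhibitors and feedback genes, which NFκB induces, Bcl3 fell by 0.55, Nfkbiz by 0.54 and Nfkbie by 0.39, and Nfkbia was not called (-0.32 ± 0.10, adjusted p = 0.0648), although its EV values of 11.04, 11.24 and 11.14 lay below those of fl-CCs at 11.39, 11.53 and 11.47. Tlr4, the lipopolysaccharide receptor, fell by 1.30 with 3 of its 4 probe sets. The kinase gene Map3k14 rose by 0.46. Interferon-responsive genes went both ways at shares near those of all genes, with 8 of 57 higher (14.0%) and 4 lower (7.02%). Without fl-CC replicate 1 the counts were 5 and 2. With only the 6 arrays in the fit 4 were higher. Irgm1, an interferon-induced GTPase, rose by 1.13 and Ifit1 by 0.99, while Ifitm3, which blocks virus entry, fell by 1.02.

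In the epithelial list as a whole 6 of 64 genes were higher (9.38%) and 16 lower (25.0%), with 10.6% and 9.19% of all autosomal genes called. Those 16 include 7 mucin and trefoil genes described above. Junction genes were lower at 3 of 16 (18.8%) and higher at 1, and desmosome genes were lower at 2 of 9 and higher at 1. Cdh1, E-cadherin, was at 12.27, 12.21 and 12.27 in fl-CCs and 12.16, 12.17 and 12.29 in EV (-0.04 ± 0.09, adjusted p = 0.836), and 1 of 10 keratins was called, Krt23, which rose by 1.03. Epcam averaged 5.76 and 5.87. Among junction genes, the tight junction genes Ocln, Tjp3 and Cldn7 fell by 0.75, 0.71 and at least 0.14, and F11r rose by 0.43. The desmosome linker gene Dsp fell by 0.78 and the periplakin gene Ppl by 0.38, and Pkp1 rose by at least 1.16. Of 17 epithelial regulators, 4 fell, among them Ehf by at least 0.91, Prss8 by 1.36 and Klf4 by 0.80, and 3 rose, which were Spint1, Klf5 and Cd24a.

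Matrix and mesenchymal genes rose at 6 of 35 (17.1%, against 10.6% of all genes) and fell at 1 (2.86%, against 9.19%). Fn1, fibronectin, was at 10.19, 11.03 and 11.23 in fl-CCs and 12.11, 12.23 and 12.07 in EV (1.32 ± 0.21, adjusted p = 0.00168). Vcan, versican, rose from background to 7.05, 6.98 and 7.07, by at least 2.03, with 4 of its 8 probe sets called. Vim, vimentin, was already high and was not called (13.47, 13.48 and 13.46 against 13.50, 13.55 and 13.54). Twist1, a mesenchymal transcription factor, fell by at least 1.10 and Zeb2 rose by 0.94. Fibroblast marker sums, given above, moved the same way as Fn1 and Vcan, and their part in these rises was not tested. Of 15 basement membrane genes 2 rose and 2 fell (13.3% each), near the shares of all genes. The laminin genes Lamb3 and Lamb1 rose by 1.41 and 0.96, the laminin gene Lamb2 fell by 0.79 and the nidogen gene Nid1 fell by 1.23. Hspg2, perlecan, was not called (7.6, 7.19 and 7.51 against 7.56, 7.01 and 7.30). The collagenase gene Mmp13 fell by 2.09, Mmp10 by 1.32 and Mmp3 by 1.22, and all 3 lie on chromosome 9. The clotting initiator gene F3 rose by 1.62 and the urokinase gene Plau by 1.16. Of 12 integrin subunits, Itga1 fell by 1.22 and 5 rose, Itgb3 by 0.81, where 2 were called higher without fl-CC replicate 1 and 3 by the probe set of highest mean. Of 24 matrix turnover genes 5 were higher (20.8%) and 4 lower (16.7%), against 10.6% and 9.19% of all genes. Without fl-CC replicate 1, 3 of them were higher, and by the probe set of highest mean 4 were.

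Of 64 growth factor genes 22 were higher (34.4%, against 10.6% of all genes) and 5 lower (7.81%, against 9.19%). By the probe set of highest mean 18 were higher. The early response factors among them were higher at 5 of 14, or at 2 by that probe set. Egr1, an immediate early factor downstream of ERK, was at 9.71, 10.25 and 10.31 in fl-CCs and 11.17, 11.38 and 11.21 in EV (1.16 ± 0.15, adjusted p = 0.000412). In all, 6 of 13 ERK feedback genes rose, among them Ier3 by 0.69, Dusp6 by 0.59 and Spry2 by 0.47, and Spred1 fell by 0.47. Replicate 1 of the fl-CCs was the lowest parental array at 84.6% of these 13 genes, and without it 5 were higher and the median was 0.24 in place of 0.36. Nrg1, a ligand of ErbB3, rose by 1.42 and its receptor gene Erbb3 fell by 1.30. The nuclear receptor gene Nr4a2 fell by 1.51. Fgf18 was at 7.67, 7.28 and 7.56 against 9, 9.23 and 9.20, and Igfbp3 and Igfbp4 rose by 1.32 and 0.98.

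In the Wnt, Notch and Hedgehog list, 11 of 33 rose (33.3%, against 10.6% of all genes) and 5 fell (15.2%, against 9.19%), and 2 were lower by the probe set of highest mean. Axin2, a feedback target of Wnt signaling, was at 4.48, 5.07 and 4.35 in fl-CCs and 5.80, 6.72 and 6.41 in EV (1.68 ± 0.30, adjusted p = 0.00301), with both probe sets called. Lgr4, a receptor for R-spondins, was at 10.72, 10.84 and 10.79 against 9.73, 9.78 and 9.76. Shh, the Hedgehog ligand that pancreatic tumor cells send to stroma, was at 6.63, 7.01 and 7.35 against 3.97, 3.81 and 3.52, a fall of at least 2 seen with 1 of its 2 probe sets. In the TGF-beta and BMP list 8 of 29 rose (27.6%) and 4 fell (13.8%). The BMP-responsive genes Id1 and Id3 fell by 1.13 and 1.55, and Id2 rose by 1.24, from 9.89, 10.00 and 9.92 to 11.20, 11.12 and 11.22. YAP target genes rose at 3 of 12 (25.0%), Ankrd1 by 1.20, Ccn2 by 0.93 and Ccn1 by 0.98, and in the same list Wwtr1, which encodes the coactivator TAZ, fell by 0.44.

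In the glycolysis and hypoxia list 11 of 33 rose (33.3%, against 10.6% of all genes) and 1 fell (3.03%, against 9.19%). The lactate exporter gene Slc16a3 was at 9.31, 9.66 and 9.30 in fl-CCs and 10.31, 10.53 and 10.45 in EV (1.01 ± 0.17, adjusted p = 0.00239), and Aldoc rose by 0.96, whereas Ldha, Pkm and Tpi1 were not called. The carbonic anhydrase genes diverged, as Car12 was at 6.80, 7.13 and 6.88 against 8.50, 8.88 and 8.89 and Car9 at 7.98, 8.69 and 8.45 against 6.22, 6.32 and 6.21. Without fl-CC replicate 1, 6 of the 33 were higher and 1 lower. Antioxidant genes driven by NRF2 fell at 8 of 19 (42.1%), with 0 higher, and the count was 4 or 5 without any 1 of the 6 arrays, with the replicate block or with only these arrays in the fit. Nqo1, a quinone reductase, was at 7.20, 6.49 and 6.66 against 4.98, 5.08 and 5.75, and the glutathione transferase genes Gstm1 and Gstm2, whose sequences are close, fell by 1.14 and 1.37. Drug and xenobiotic handling genes fell at 8 of 21 (38.1%), Aldh3a1 by 1.46 and Cyp2s1 by 1.04, and Cyp1b1 rose by 1.26. Without fl-CC replicate 1, 5 of the 21 were lower, and 5 by the probe set of highest mean. Cholesterol synthesis enzymes rose at 4 of 15 (26.7%), led by Lss (1.27), but at 1 by the probe set of highest mean. Fatty acid genes rose at 6 of 17 (35.3%), led by Acsl3 (0.91), and Elovl6 fell by 0.34.

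By their labels both groups lack p53. Of 28 genes known as targets of the wild-type protein, 8 were higher (28.6%, against 10.6% of all genes) and 3 lower (10.7%, near the 9.19% of all genes). Rrm2b rose by 0.96, Gadd45a by 0.88 and Plk2 by 0.81, and Psrc1 fell by 1.42. Cdkn1a, the inhibitor p21, was at 8.45, 9.92 and 9.18 against 9.68, 9.98 and 10.07 and was not called (adjusted p = 0.122). Bcl2, the antiapoptotic gene, was at 9.28, 9.15 and 9.40 against 9.98, 9.90 and 9.85 (0.63 ± 0.10, adjusted p = 0.00123), and Bcl2l1 fell by 0.35. Tnfrsf9, a receptor of the TNF family, was not called (5.65, 6.78 and 6.50 against 7.11, 6.89 and 6.86), and Cxcl12 and Tnfsf11 were near background in both groups. Unfolded protein response genes rose at 6 of 18 (33.3%, against 10.6% of all genes), Dnajb9 by 0.75. The count was 4 by the probe set of highest mean, and 4 without fl-CC replicate 1. In the amino acid response list 2 of 29 fell (6.9%), under the 9.19% of all genes. In the list of DNA methylation, chromatin and imprinted genes 4 of 25 rose and 5 fell, and 12 were near background in both groups. By the probe set of highest mean 2 rose and 4 fell. The called imprinted genes went both ways. Peg3 was at 5.59, 5.62 and 5.60 against 2.63, 2.62 and 2.45, a fall of at least 0.60 seen with 3 of its 5 probe sets. Impact fell by 1.12, while Mest rose by 0.91. Peg3 and Impact averaged 9.71 and 9.49 in the p53 R175H cells.

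In the cytosolic ribosome list 1 of 15 genes was called (6.67%, against 10.6% higher and 9.19% lower of all genes), Rpl22, which rose by 0.59, and 0 were by the probe set of highest mean (limma). In the mitochondrial ribosome list 2 of 26 rose (7.69%) and 5 fell (19.2%), or 0 and 3 by the probe set of highest mean. In the respiratory chain list 1 of 26 rose and 2 fell, with all differences between -0.29 and 0.25, and 0 were called without fl-CC replicate 1 (limma). In the lysosome list 5 of 29 rose (17.2%), among them Npc1 by 0.69.

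The difference also had a chromosomal layout. Read by the probe set of highest mean, genes on chromosome 2 were shifted down as a whole, with a median of -0.14 over 1399 genes, while those on chromosomes 1, 11 and 12 were shifted up, with medians of 0.11, 0.11 and 0.15, and the median of all autosomal genes was close to 0. On chromosome 2, 316 genes were called lower and 55 higher, or 22.6% and 3.93%, against 7.26% and 7.98% of all genes. On chromosome 12, 145 of 622 were higher (23.3%) and 19 lower. On chromosome 1, 204 of 1057 were higher and 35 lower, and on chromosome 11, 213 of 1443 were higher and 31 lower. Among genes with a mean of at least 5 over all arrays the medians were wider apart, at -0.22 for chromosome 2, 0.19 for chromosome 1, 0.16 for chromosome 11 and 0.21 for chromosome 12. On chromosome 2, 79.5% of these brighter genes were below 0, and on chromosome 12, 21% were.

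The shift was alike in the 3 EV arrays. Relative to the mean of the fl-CC arrays, the chromosome 2 medians were -0.158, -0.149 and -0.152 in EV and -0.005, -0.006 and 0.004 in the fl-CC arrays themselves. The chromosome 12 medians were 0.155, 0.152 and 0.149 in EV and -0.001, -0.001 and 0 in fl-CCs. For chromosome 1 the EV arrays were at 0.123, 0.106 and 0.136, and for chromosome 11 at 0.125, 0.109 and 0.122. The p53 R175H arrays, measured from the same fl-CC mean, had a layout of their own, at 0.089, 0.114 and 0.090 for chromosome 2 and at -0.108, -0.091 and -0.118 for chromosome 10. These medians are a description with no test.

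**Figure D4:**
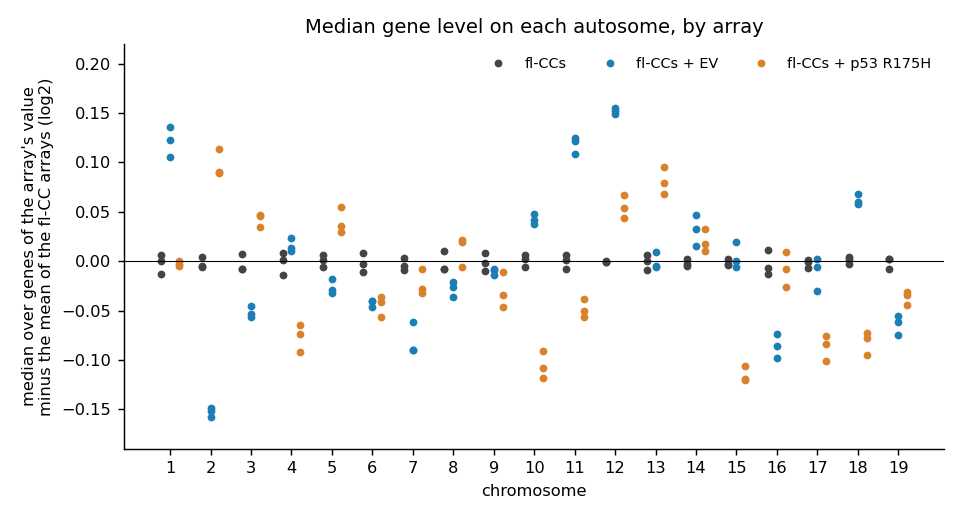
For each autosome, the median over its genes of the array's log2 RMA value minus the mean of the 3 fl-CC arrays, with 3 points for each of fl-CCs, EV and p53 R175H cells. The fl-CC points sit near 0, the EV points lie above 0.1 on chromosomes 1, 11 and 12 and near -0.15 on chromosome 2, and the p53 R175H points on chromosome 2 lie on the other side of 0.

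The shifts ran along whole chromosomes. When genes with a mean of at least 5 were taken in gene order in 228 bins of 50 to 60 neighbours, all 19 bins of chromosome 2 had a median below 0, from -0.30 to -0.15, and all 21 bins of chromosome 11 were above 0, from 0.09 to 0.22. The 13 bins of chromosome 1 ran from 0.09 to 0.24. Chromosome 12 was uneven, with 0.31, 0.41 and 0.31 in its first 3 bins and 0.07 to 0.22 in the other 5. On chromosome 14 the first bin stood at 0.22 and the others between -0.01 and 0.08. In all, 9 of the 19 autosomes had every bin on one side of 0, which were 1, 2, 3, 7, 11, 12, 16, 18 and 19. In the p53 R175H cells the 19 bins of chromosome 2 were all above 0 relative to the same fl-CC arrays, from 0.04 to 0.25. The arrays measured RNA only, and the DNA content of the chromosomes was not measured.

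**Figure D5:**
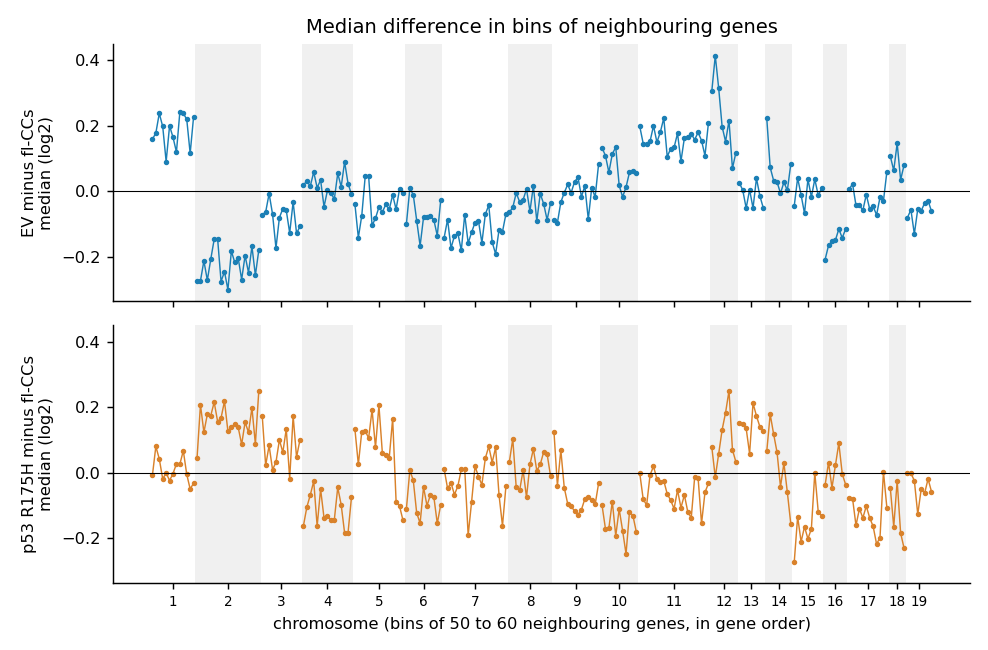
Median difference in log2 for bins of 50 to 60 neighbouring genes, in gene order along the 19 autosomes, for EV minus fl-CCs (upper panel) and p53 R175H minus fl-CCs (lower panel), which share the fl-CC arrays. With EV the bins of chromosome 2 lie between -0.30 and -0.15 and the second bin of chromosome 12 reaches 0.41.

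Large single-gene changes went with the chromosomal shift in some cases and against it in others. On chromosome 2, Hao1, Slc43a3 and Bcas1 fell by far more than the chromosome's median, and Il1rn on the same chromosome rose by 1.60. On chromosome 12, 3110009F21Rik, Akap5 and Lratd1 (8.49, 9.15 and 9.18 against 10.71, 10.79 and 10.82) rose, and Serpina1b fell. Igfbp5 on chromosome 1 fell. The mitosis genes fell on every set of chromosomes: all 6 on chromosome 2 fell with a median of -1.06, all 5 on chromosomes 1, 11 and 12 fell with a median of -0.70, and all 18 elsewhere fell with a median of -0.86. Without chromosomes 1, 2, 11 and 12, 1052 genes were called higher and 1124 lower, so the lower calls then outnumbered the higher ones. Probe sets of one gene were called in opposite directions at 9 autosomal genes. One of them was Ctse, the aspartic protease cathepsin E, with 1 probe set lower and 1 higher, which counts as lower in the list of liver-type and gut-type products. Ing3 and Foxk2 were among the others.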

How the data were processed

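RNA of 12 samples was hybridised to Affymetrix whole-genome mouse expression arrays, 3 in each of 4 groups. The authors deposited log2 values per probe set made by RMA, which corrects background, normalises all arrays by quantiles and summarises probes. RMA pulls differences of dim probe sets towards 0 and leaves no depth, so the number of arrays limits the precision. The genome build behind the values was not given in the sources used here. Of 45101 probe sets, 64 controls were removed and 45037 tested. The platform annotation gave 34945 probe sets a single symbol, 932 several and 9160 none.

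EV minus fl-CCs was fitted with limma 3.58.1 (R 4.3.3; lmFit and eBayes) over 4 group means of all 12 arrays, with Benjamini-Hochberg adjustment over all probe sets and a threshold of 0.05 with no fold limit. Errors after ± are standard errors of that fit with 3 arrays a group. For each gene the probe set of lowest adjusted p was read, and for chromosome medians the one of highest mean. A value under 5 was taken as near background, and where every array of the dimmer group was under 5 a change is given as at least the brighter mean minus 5. The code was tested on simulated data. Same-numbered arrays of the 2 groups did not deviate together (r = 0.036, 0.01 and -0.018), so the numbers pair nothing.

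Named genes were the 10 largest rises and falls with a brighter mean of at least 6 and no overlap, up to 3 called members per role and direction of each list, genes the study names, cell type markers, 3 genes on each of the chromosomes with the highest and lowest median, and up to 3 genes whose probe sets were called in opposite directions. Apob, C1ra, Cdc20, Cdkn1a, Cenpf, Cftr, Car2, Cldn4, Coro1a, Esrp1, Fbln2, Grhl2, Lbp, Ldha, Mki67, Muc1, Muc4, Muc5ac, Muc13, Muc20, Pdgfra, Pdx1, Pkm, Ppbp, Rrm2, Sox9, Tpi1 and Ttr were added for their role after their values were seen. The comparison and its 35 lists were chosen with earlier results of these data known. Of 1010 list genes 923 were measured.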

Additional observations from a re-analysis of the deposited data

How the results depend on the processing

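Alternatives changed the fit, the normalization, the filter on dim probe sets, the choice of probe set or the arrays used, and 2 of them (leaving out chromosomes, and the list counts without single arrays) were chosen after seeing the data. A limit of 1 on the log2 difference left 342 genes higher, 302 lower and 905 probe sets. Without chromosomes 1, 2, 11 and 12, 1052 genes were higher. The other settings gave 1171 to 2185 genes in either direction, and leaving out 1 array gave 1333 to 1490 higher and 1138 to 1282 lower.

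With only the 6 arrays in the fit, 7 replication genes were lower, 0 acute phase genes higher, 5 NRF2 genes lower, 3 NFκB genes lower and 4 interferon genes higher. With the replicate number as a block, 1647 genes were higher and 1387 lower, 5 NRF2 genes, 3 NFκB genes and 2 interferon genes were lower, and no call of a single gene changed among the 39 recomputed. With a mean of at least 5, 3 lineage genes were higher, and the medians of chromosomes 1, 2, 11 and 12 were 0.194, -0.219, 0.158 and 0.208. The cause of these moves was not tested.

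Leaving out 1 array in turn, the lower calls ranged from 9 to 17 for replication, 4 to 5 for NRF2, 2 to 5 for NFκB and 2 to 4 for interferon genes. The higher calls ranged from 3 to 5 for lineage, 0 to 1 for NRF2, 1 to 2 for NFκB and 5 to 9 for interferon genes. The medians ranged from -0.152 to -0.14 for chromosome 2, from 0.109 to 0.12 for chromosome 11 and from 0.144 to 0.155 for chromosome 12.

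The 39 single genes gave 614 values under the alternatives. Of these, 602 kept their direction and their side of the threshold, 7 passed the threshold where the reported value had not (Nfkbia, Tnfrsf9 and Col1a1) and 0 lost it. The other 5 changed sign in genes that were not called in any of these settings. Epcam (0.115) was at -0.053 with array weights and ran from -0.091 to 0.32 without single arrays, Krt19 (-0.024) ran from -0.048 to 0.006, and Pecam1 (-0.066) ran from -0.228 to 0.091. With 3 arrays a group and 1 line a group, differences between cultures of one line cannot be told apart from those made by the vector, and for genes near background the size of a change is bounded on one side only.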

Other observations

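Sex chromosome genes were left out of the counts above. Of 617 genes on the X chromosome 44 were higher and 67 lower with EV, where 10.6% of autosomal genes were higher and 9.19% lower. Whether X genes differed from autosomal ones was not tested. Tmlhe, the first enzyme of carnitine synthesis, was at 9.5, 9.79 and 9.71 in fl-CCs and 5.78, 5.56 and 5.81 in EV. Klhl13, a substrate adaptor of a ubiquitin ligase, was at 8.37, 8.08 and 8.26 against 4.76, 4.83 and 5.10. Of 9 genes on the Y chromosome 3 were lower and 0 higher. The translation factor gene Eif2s3y was at 7.80, 7.81 and 7.76 against 5.85, 5.39 and 5.23, and averaged 9.55 in the p53 R175H cells. The histone demethylase gene Kdm5d was at 7.83, 8.60 and 8.38 against 5.60, 6 and 4.96, and averaged 10.05 there. Uty was under 5 in both groups. The 3 lines therefore stood in the order EV, parental, p53 R175H at Eif2s3y and Kdm5d, with no overlap between EV and fl-CCs. These genes were picked after their values were seen.

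Another 467 probe sets with no symbol in the annotation used here were called (limma, adjusted p of 0.05 or less).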
